A study of Mus musculus with 8 samples.

Results

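The messenger RNA levels of 48 genes that make ribosomes, with the transcription factor Myc at their head, were followed through 8 RNA sequencing libraries of mouse neutrophils. The 48 genes were taken by name from the deposited table of 55450 genes, by a list of names that sets no condition on a measured value. The list was chosen with earlier results of these data known. All 48 were found in the table, and all 48 passed the filter on low counts that left 15975 genes for testing. By role they were Myc itself, 6 genes of RNA polymerase I and its factors, 8 proteins of the small nucleolar ribonucleoproteins (snoRNPs), 17 factors of the small ribosomal subunit, 13 factors of the large subunit and 3 abundant nucleolar proteins.

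The neutrophils had been sorted by flow cytometry into cells with and without surface CD71, the transferrin receptor that carries iron into cells. The first source was brain tumours of SB28, a transplantable mouse glioma line. The second was neutrophils grown in vitro from the bone marrow of naive mice. Each source gave 2 CD71+ and 2 CD71- libraries, so there were 4 groups of 2. Strain, age and the number of animals or cultures behind a library are not stated in the labels, nor are a treatment or the days in culture. The p-values therefore rest on the spread between these libraries alone, and that spread may be technical.

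Myc binds DNA as a dimer with its partner Max, most tightly at the E-box, and is known as a driver of ribosome production in growing cells. RNA polymerase I copies the ribosomal DNA in the nucleolus, snoRNPs modify the long transcript, and separate sets of assembly factors then cut and fold it into the small and the large subunit. Neutrophil precursors run this machinery while they divide, and mature neutrophils are known to divide no further and to make little new ribosome.

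The E-box (CACGTG, the same on both strands) was looked for in RefSeq promoter windows of build GRCm38.p6, from 250 bases before to 50 after a transcription start. Of the 40 members with a window, 9 (22.5%) held it, against 8.09% of all 27025 genes with a window and 11.4% of the 10440 tested genes with one. The 9 were Rrn3, Ltv1, Mybbp1a, Nop2, Pes1, Utp18, Utp20, Utp4 and Wdr43. A match is a run of letters and was not shown here to be bound. Sequences are printed 5′ to 3′ on the gene's strand with the E-box in capitals. The first is that of Rrn3, the only member with 2 copies, and the last that of Ncl, a member without the motif whose level is described further on. The others show the motif with its flanks.
Rrn3, chr16:13780449-13780728, plus strand: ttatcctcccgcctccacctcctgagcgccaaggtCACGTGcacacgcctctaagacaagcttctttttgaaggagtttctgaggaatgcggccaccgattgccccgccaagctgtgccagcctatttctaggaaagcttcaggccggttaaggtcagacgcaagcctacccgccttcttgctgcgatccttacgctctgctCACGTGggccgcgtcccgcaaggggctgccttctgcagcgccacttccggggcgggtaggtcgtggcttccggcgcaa
Nop2, chr6:125131796-125131855, plus strand: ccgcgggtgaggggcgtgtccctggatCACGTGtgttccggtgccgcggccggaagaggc
Utp18, chr11:93885754-93885813, minus strand: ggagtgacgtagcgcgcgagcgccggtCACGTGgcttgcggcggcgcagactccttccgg
Pes1, chr11:3963950-3964004, plus strand: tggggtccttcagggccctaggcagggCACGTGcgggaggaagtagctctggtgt
Ltv1, chr10:13193092-13193121, minus strand: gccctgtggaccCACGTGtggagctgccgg
Mybbp1a, chr11:72441355-72441376, plus strand: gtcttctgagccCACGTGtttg
Ncl, chr1:86359426-86359705, minus strand: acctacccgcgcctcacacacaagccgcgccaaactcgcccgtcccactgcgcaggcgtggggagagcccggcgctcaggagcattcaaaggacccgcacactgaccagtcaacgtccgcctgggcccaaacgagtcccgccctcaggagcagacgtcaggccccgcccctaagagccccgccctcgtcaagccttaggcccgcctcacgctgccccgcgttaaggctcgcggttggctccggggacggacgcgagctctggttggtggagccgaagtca

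In these windows the Rrn3 motifs began 215 and 48 bases before the start, that of Nop2 60 before and that of Utp18 20 before. Those of Pes1, Ltv1 and Mybbp1a began 3, 29 and 41 bases into the transcript. No window was found for Myc, Tcof1, Fbl, Utp6, Rrp12, Bop1, Rrs1 and Npm1. Set beside the tumour comparison described below, 5 of the 9 with it (55.6%) and 16 of the 31 without it (51.6%) were higher in CD71+ tumour neutrophils.

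Total counts ran from 9598959 to 22615813 per library. Levels are given in CPM, a gene's count scaled to a common depth on library sizes adjusted by the TMM method. The 24 mature neutrophil genes summed to 36600 to 38700 CPM in CD71- and 17800 to 18800 CPM in CD71+ tumour libraries, and to 10500 to 11400 and 6010 to 7770 CPM in culture. With CD71, 20 of the 24 fell and 0 rose in the tumour, and 11 fell and 2 rose in culture. Of 11 tested genes of early neutrophils 1 rose and 2 fell with CD71 in each source, and the 13 found in the table summed to 172 to 207 CPM in culture and 327 to 430 CPM in the tumour, with Elane and Mpo at or below 2.52 CPM. The transcript of CD71 itself, Tfrc, stood at 131 and 94.4 CPM in the CD71- and 116 and 115 CPM in the CD71+ culture libraries, and at 187 and 145 against 103 and 108 CPM in the tumour. It did not follow the sort, and Tfrc fell by 0.65 on the log2 scale in CD71+ tumour cells.

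Markers of other cells moved with CD71. In the tumour, 16 of 18 tested macrophage and monocyte genes rose and 0 fell, and the whole list summed to 913 to 926 CPM in CD71- and 4070 to 4420 CPM in CD71+ libraries. All 10 microglia genes rose, from sums of 115 to 150 to sums of 1120 to 1600 CPM. In culture 12 of 18 macrophage genes rose and 1 fell, with sums of 981 to 1020 and 1500 to 1770 CPM, and 4 of 10 microglia genes rose and 0 fell, with sums of 71.8 to 73.7 and 132 to 163 CPM and with Sall1 and Siglech at 0. Per kilobase of exon, single markers in the CD71+ culture libraries went both ways. The macrophage receptor gene Csf1r (137 and 122 CPM) exceeded the neutrophil receptor gene Csf3r (86.4 and 97.3 CPM). The neutrophil gene S100a8, at 605 and 485 CPM, exceeded Csf1r, and the macrophage gene Mrc1 was at 1.33 and 1.25 CPM. In the CD71- culture libraries Csf1r was at 91.2 and 98.1 CPM and Csf3r at 520 and 402 CPM per kilobase. Cell cycle genes rose too, 21 of 30 in the tumour and 12 of 30 in culture. In the tumour 5 of 8 dendritic, 3 of 4 lymphocyte, 5 of 9 glioma and neural and 4 of 7 endothelial and stromal genes also rose, with 1 of the last falling. Both tested erythroid genes rose there, the whole list of 10 summing to 0.419 to 0.555 CPM in CD71- and 4.05 to 5.78 CPM in CD71+ libraries, with 5 of the 10 at 0 in each. The part of these cells in the results on ribosome genes was not tested, and in bulk libraries more cells of a type and more RNA per cell cannot be told apart.

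The members took a small share of the counts of each library, and the share was smallest in CD71- tumour neutrophils. They held 0.153% and 0.164% of the counts in CD71- and 0.176% and 0.185% in CD71+ culture libraries. In the tumour they held 0.0623% and 0.0571% in CD71- and 0.114% and 0.126% in CD71+ libraries, with no overlap between the sorts in either source. On the TMM scale their summed level was 1260 and 1430 CPM in CD71- and 1210 and 1240 CPM in CD71+ culture libraries, so the order of the sorts in culture turned with the scale. The tumour sums were 1040 and 885 CPM for CD71- and 1290 and 1320 CPM for CD71+ cells. CD71- tumour neutrophils were the lowest of the 4 groups for 32 of the 48 members. The highest group was CD71+ culture for 17 members, CD71+ tumour for another 17, CD71- culture for 9 and CD71- tumour for 5. These orders were not counted over all tested genes, so what is particular to the members in them cannot be told. Per kilobase of exon, the highest member over the 8 libraries was Npm1 at 37.9 CPM, followed by Ncl at 18.4, Noc2l at 18.2 and Rrp1b at 14.7. Myc was the ninth of the 48 at 7.3 CPM per kilobase, and Wdr12, at 0.426, was the lowest.

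**Figure D1:**
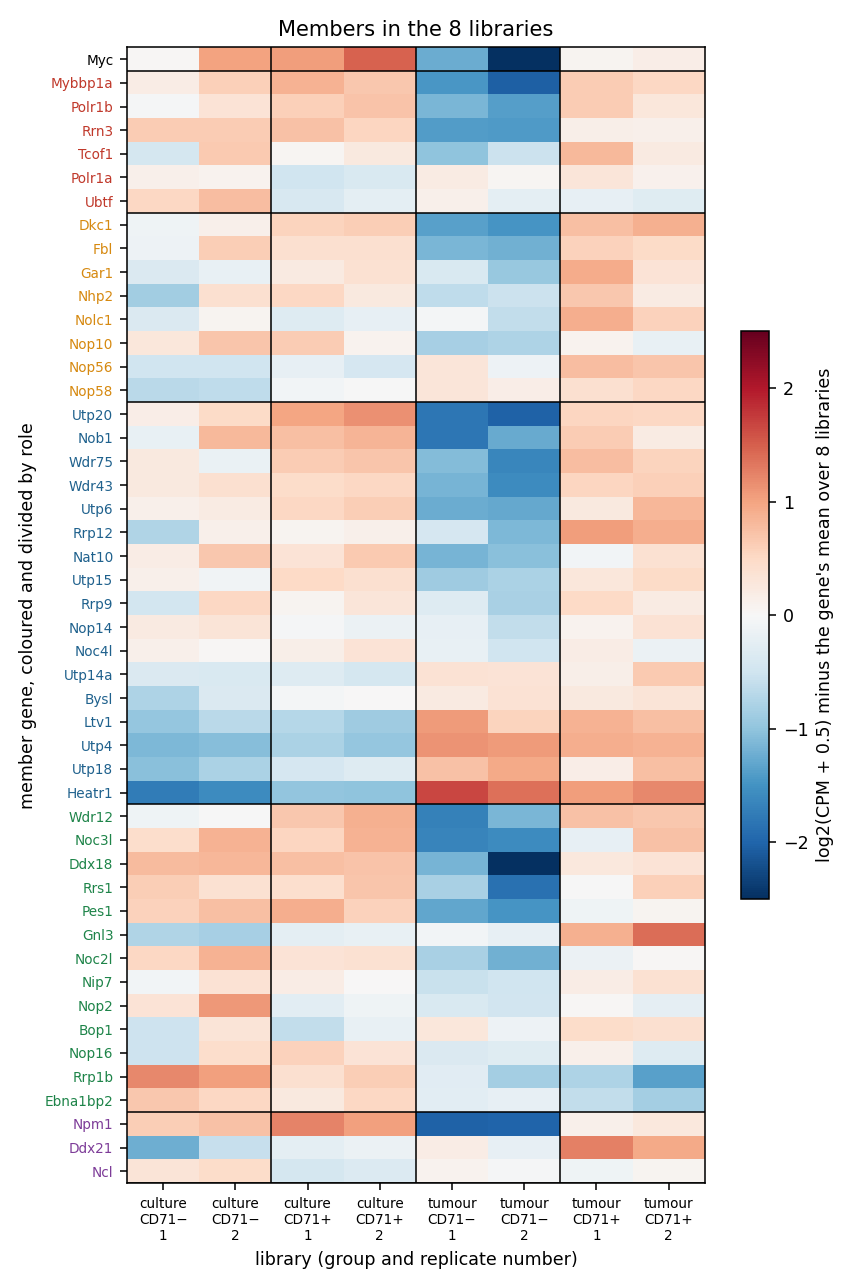
Each row is a member and each column a library, and colour gives log2(CPM + 0.5) minus the gene's mean over the 8 libraries, with values beyond 2.5 drawn at the end of the scale. Most rows are blue in the 2 CD71- tumour columns, the lowest group for 32 of 48 members. This order was not counted over all tested genes. Ltv1, Utp4, Utp18 and Heatr1 are red in the 4 tumour columns.

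In tumour neutrophils, on the TMM scale, most of the 48 members had a higher level in the CD71+ than in the CD71- cells. By the quasi-likelihood test of edgeR, adjusted by the Benjamini-Hochberg method over all 15975 genes, 28 of the 48 members rose at an adjusted p under 0.05 and 0 fell. Of all genes tested, 26.1% rose and 18% fell. The members' median log2 fold change was 1.13, and that of all genes 0.13. In 36 members both CD71+ libraries lay above both CD71- libraries, in 3 (Ebna1bp2, Heatr1 and Utp4) they lay below, and 9 overlapped. Of all genes tested, 40.1% lay above and 32.4% below in this way. The calls came from every role, with 1 of 1 for Myc, 4 of 6 for RNA polymerase I, 5 of 8 for snoRNPs, 8 of 17 for the small subunit, 8 of 13 for the large subunit and 2 of 3 nucleolar proteins. The number depended on the scaling of the libraries, from 26 higher and 2 lower with DESeq2 size factors to 45 higher on mature neutrophil genes. Of all tested genes, 21.3% rose and 24.8% fell on the first scale, and 57.6% and 0.156% on the second. Calls among all genes were 59.2% upward with TMM, 46.3% with DESeq2 size factors and 92.8% on total counts, since a scaling shifts all genes together. With 1 library left out, the median ran from 0.95 to 1.2 over members and from 0.05 to 0.17 over all genes.

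In culture fewer members were called. Of the 48 members 4 rose in CD71+ cells (Nop58, Heatr1, Utp20 and Wdr12) and 4 fell (Ubtf, Nop2, Ncl and Polr1a). This even split went with the scaling. Members called were 4 higher and 5 lower by DESeq2 size factors, 16 and 1 on total counts and 30 and 0 on mature neutrophil genes. Of all tested genes, 8.98% rose and 11.2% fell by DESeq2 size factors, 20.4% and 4.51% on total counts and 43% and 1.91% on mature neutrophil genes. The upward share of all calls was 50.8% with TMM, and 44.5%, 81.9% and 95.7% on those scales in that order. With TMM the members' shares of 8.33% each way lay near those of all genes tested, of which 9.76% rose and 9.46% fell. The median over members was 0.17, and over all genes 0.03. In 21 members both CD71+ libraries were the higher and in 8 the lower, where 33.3% and 27.5% of all tested genes were. None of the 8 calls held in every alternative run. Without CD71+ replicate 1, which left 1 library in that group, fewer genes were called among members and among all tested genes. The median was then 0.24 over members and 0 over all genes. The CD71- culture replicates differed from each other more than any other pair (a chi-square per degree of freedom of 69.2 over genes, against 12.6 to 19.6), with mitochondrial transcripts at 7.09% and 12% of counts against 1.45% and 2.17% in the CD71+ culture libraries.

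Whether CD71 marked a larger change in the tumour than in culture was tested as a difference of differences. For 17 members the tumour effect was the more positive and for 1, Heatr1, the more negative, against 10.5% and 4.75% of all genes tested. The median difference was 0.99 log2 units over members and 0.18 over all genes. By role 2 of 6 RNA polymerase I genes, 3 of 8 snoRNP genes, 5 of 17 small subunit genes, 5 of 13 large subunit genes and 2 of 3 nucleolar genes were in the first set. With a library left out, 1 group held 1 library, and the numbers called changed among members and among all tested genes. The members' median difference then ran from 0.77 (without CD71- culture replicate 2) to 1.22 (without CD71- culture replicate 1). That of all genes ran from 0.1 to 0.2. Of the 18 calls, those of Mybbp1a, Npm1, Rrn3 and Wdr43 held in every alternative run.

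**Figure D2:**
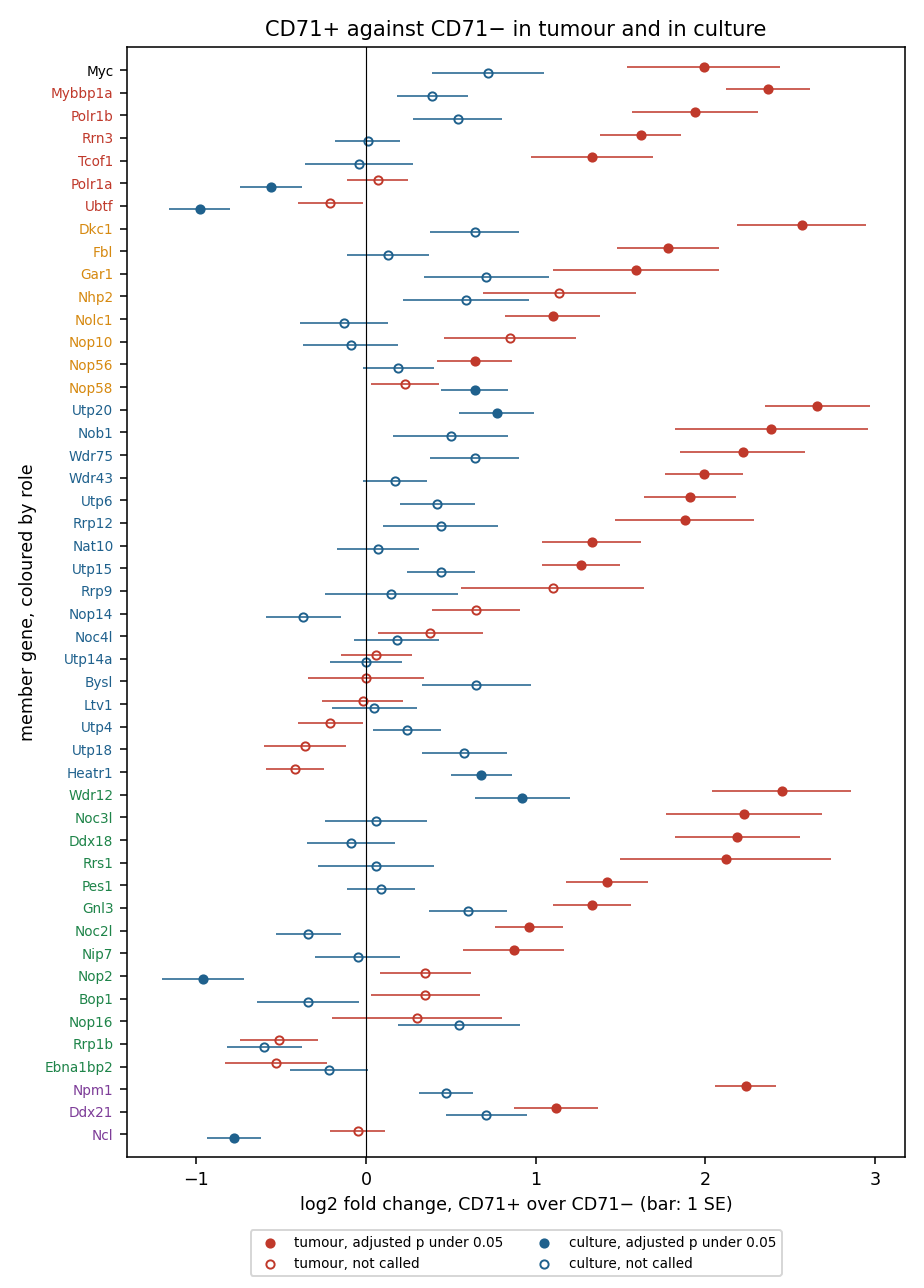
Points give the log2 fold change of CD71+ over CD71- libraries for each member in the tumour (red) and in culture (blue), bars 1 standard error, and filled points an adjusted p under 0.05. The red points of 28 members are filled and all of these lie right of 0, while 8 blue points are filled, 4 on each side.

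Myc (chr15:61985391-61990374, mm10, plus strand) was measured at 15.1 and 30 CPM in CD71- and 31.2 and 42.1 CPM in CD71+ culture libraries. In the tumour it stood at 6.01 and 2.08 CPM in CD71- and 15.6 and 16.6 CPM in CD71+ libraries. The sorts did not overlap in either source, and both CD71+ tumour values lay just above the lower of the CD71- culture values. In the tumour Myc rose 3.98-fold in CD71+ cells (log2 fold change 1.99 ± 0.45 SE, adjusted p = 0.0041, edgeR quasi-likelihood). The value rests in part on CD71- replicate 2, which held 15 Myc reads, and without it was 1.31 with an adjusted p of 0.079. In culture the log2 difference was 0.72 ± 0.33, with an adjusted p of 0.16, and it passed on total counts (1.04, adjusted p = 0.023). The 2 effects differed by 1.27 ± 0.57, which did not pass (adjusted p = 0.15).

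With TMM scaling none of the tested partners and antagonists of Myc rose with it in the tumour. Max, which Myc needs to bind DNA, was at 226 and 276 CPM in CD71- and 157 and 149 CPM in CD71+ tumour libraries, a fall of Max by 0.71 on the log2 scale (adjusted p = 0.0036, edgeR quasi-likelihood). Mxd1, which takes Max from Myc and represses the E-box, was the most abundant gene of the network. It was at 7760 and 7990 CPM in CD71- and 4120 and 3610 CPM in CD71+ tumour libraries, against 760 and 677 and 300 and 267 CPM in culture. Mxd1 fell in CD71+ cells by 1.03 on the log2 scale in the tumour (adjusted p = 0.00041) and by 1.34 in culture (adjusted p = 0.00017). Scaled on mature neutrophil genes, the tumour difference of Mxd1 was 0.01 and that of Max 0.33, and neither passed. Mxi1 fell in culture by 0.56 (adjusted p = 0.037), and Mnt passed in neither source. In the tumour Mxi1 had a log2 difference of 0.22, but passed as higher on total counts (0.77) and on mature neutrophil genes (1.25), where Mnt passed too (0.67). Of 12 tested network genes other than Myc, 4 fell in CD71+ tumour cells and 2 in CD71+ culture cells, and 0 rose. The other Myc family genes were barely seen, with Mycn at 0 in 3 of the 4 groups.

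**Figure D3:**
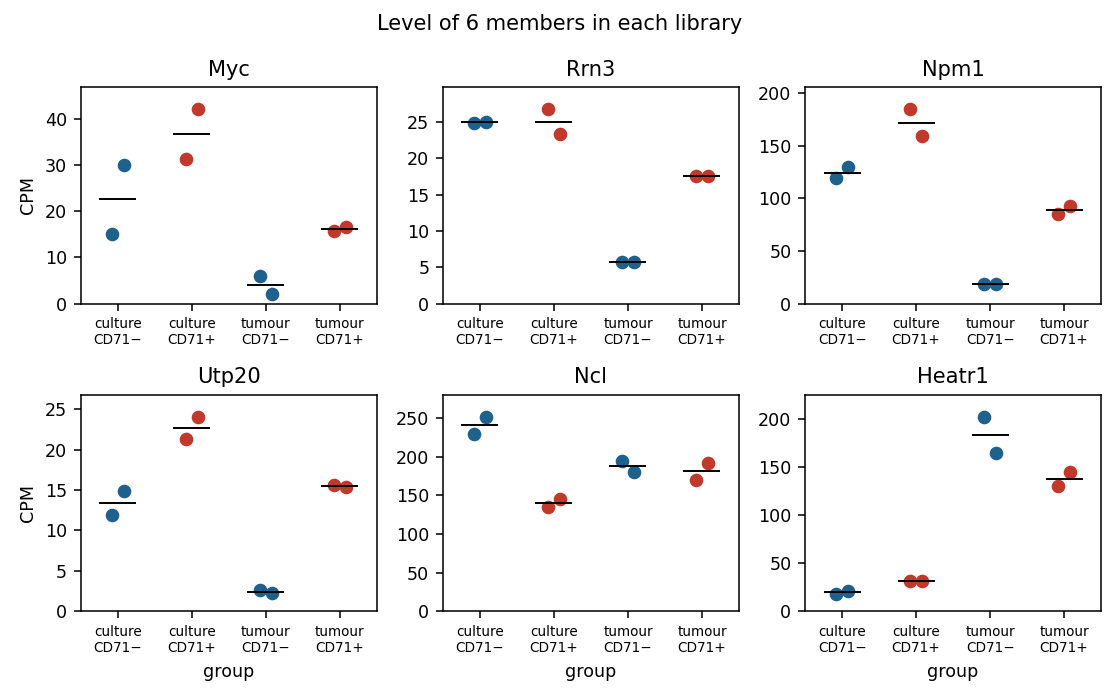
Dots give the CPM of 6 members in each library on axes that start at 0, in blue for CD71- and red for CD71+ libraries, and lines the group means. Myc, Rrn3, Npm1 and Utp20 are lowest in both CD71- tumour libraries, Ncl is lowest in both CD71+ culture libraries, and Heatr1 lies at 131 to 203 CPM in the 4 tumour libraries and at 18.3 to 31.8 CPM in the 4 culture libraries.

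Of the genes of RNA polymerase I, Rrn3, Mybbp1a, Polr1b and Tcof1 rose in the tumour, and Polr1a and Ubtf did not pass. Rrn3 (chr16:13780708-13814839, mm10), the factor that brings the polymerase to the ribosomal DNA promoter and whose promoter is shown above, read 24.9 and 25 CPM in CD71- and 26.8 and 23.3 CPM in CD71+ culture cells. In the tumour it read 5.73 and 5.69 CPM in CD71- and 17.6 and 17.5 CPM in CD71+ cells. Its 2 culture sorts overlapped, and its tumour sorts lay 3.08-fold apart (log2 fold change 1.62 ± 0.24, adjusted p = 0.00022, edgeR quasi-likelihood). The tumour effect exceeded the culture effect by 1.61 ± 0.31 (adjusted p = 0.0045).

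Mybbp1a, a nucleolar Myb-binding protein that acts in ribosomal RNA synthesis and processing, rose most in this role. It read 9.65 and 6.24 CPM in CD71- and 42.8 and 39.5 CPM in CD71+ tumour libraries, and 31.1 and 41.2 against 50.3 and 43.9 CPM in culture. The sorts were apart in both sources. With TMM only the tumour change passed, at 2.37 ± 0.25 on the log2 scale (adjusted p = 1.5e-05, edgeR quasi-likelihood). The culture change of Mybbp1a passed as higher on total counts (0.7) and on mature neutrophil genes (1.05). With TMM the difference of effects was 1.98 ± 0.33 (adjusted p = 0.0019, same test). Polr1b, the second largest subunit of the polymerase, rose by 1.94 ± 0.37 in the tumour, from 2.38 and 1.94 to 9.34 and 7.26 CPM. Tcof1 (treacle, which holds the nucleolar machinery together) rose by 1.33 ± 0.36. That call of Tcof1 was lost without either CD71- tumour replicate or without CD71+ replicate 1.

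Polr1a, the largest, catalytic subunit, read 41.2 and 36.9 CPM in CD71- and 43.7 and 38.4 CPM in CD71+ tumour libraries, which overlap. Ubtf, which bends ribosomal DNA for transcription, was the member of this role with the highest level per kilobase. It read 96.4 and 116 CPM in CD71- and 50.7 and 56.5 CPM in CD71+ culture libraries and fell there 1.98-fold (log2 fold change -0.98 ± 0.18, adjusted p = 0.002, edgeR quasi-likelihood). In the tumour Ubtf read 73.3 and 56.9 against 58.3 and 54.5 CPM, with overlapping sorts and an adjusted p of 0.39. The culture change of Ubtf was -0.3 when libraries were scaled on mature neutrophil genes and its call was then lost.

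Of the snoRNP proteins, those of box H/ACA particles, which turn uridine into pseudouridine, included the largest rise. Dkc1, the pseudouridine synthase, read 1.54 and 1.39 CPM in CD71- and 8.28 and 9.14 CPM in CD71+ tumour libraries. In culture it read 4.33 and 5.17 against 7.21 and 7.51 CPM. The sorts were apart in both sources, and Dkc1 rose 5.93-fold in the tumour (log2 fold change 2.57 ± 0.38, adjusted p = 0.00021, edgeR quasi-likelihood). In culture Dkc1 changed by 0.64 ± 0.26 (adjusted p = 0.1, same test). That change passed as higher on total counts (0.95) and on mature neutrophil genes (1.33). Its partner Gar1 rose by 1.59 ± 0.49 in the tumour, from 1.68 and 0.971 to 4.91 and 3.11 CPM, a call lost without either CD71- tumour replicate or without CD71+ replicate 1. The other partners Nhp2 and Nop10 had log2 differences of 1.14 ± 0.45 and 0.85 ± 0.39 that did not pass. Nop10, the snoRNP gene with the highest level per kilobase, read 3.08 and 3.19 CPM in CD71- and 6.26 and 5.09 CPM in CD71+ tumour libraries, which lie apart, and 7.18 and 9.71 against 9.34 and 6.26 CPM in culture, which overlap.

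The proteins of box C/D particles, which methylate ribosomal RNA, were split. Fbl (fibrillarin), the methyltransferase, read 6.15 and 5.83 CPM in CD71- and 21.3 and 20 CPM in CD71+ tumour libraries and 12.9, 21.9, 18.7 and 18.8 CPM in culture, where the sorts overlapped. It rose in the tumour by 1.78 ± 0.30 on the log2 scale. The scaffold proteins Nop56 and Nop58 were less changed in the tumour, by 0.64 ± 0.22 (adjusted p = 0.028) and 0.23 ± 0.20 (adjusted p = 0.39). The call of Nop56 was lost with DESeq2 size factors and without any of 6 libraries. In culture Nop58 read 11.7 and 12 CPM in CD71- and 18 and 18.9 CPM in CD71+ cells, a rise of 0.64 ± 0.20 (adjusted p = 0.037). Nolc1, a chaperone of both kinds of particle, rose in the tumour by 1.10 ± 0.28, from 11.3 and 7.49 to 22.6 and 17.8 CPM, and not without CD71- replicate 2.

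Of the small subunit factors 8 rose in the tumour, among them the member with the largest fold change of the 48, and 9 did not pass. Utp20 (chr10:88746607-88826804, mm10), a giant scaffold of the processome that cuts out the 18S RNA, read 2.66 and 2.22 CPM in CD71- and 15.6 and 15.4 CPM in CD71+ tumour libraries. In culture it read 11.9 and 14.9 against 21.3 and 24.1 CPM, so that the CD71- tumour cells lay apart from the other 3 groups. Utp20 rose 6.33-fold in the tumour (log2 fold change 2.66 ± 0.31, adjusted p = 3e-05, edgeR quasi-likelihood) and 1.7-fold in culture (0.77 ± 0.22, adjusted p = 0.024), and the effects differed by 1.89 ± 0.38 (adjusted p = 0.006).

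Nob1, the endonuclease that makes the final cut of 18S RNA, rose in the tumour by 2.39 ± 0.57 on the log2 scale from 0.699 and 1.25 to 5.97 and 4.34 CPM. Those low values rest on 5 and 9 reads, and the call of Nob1 was lost without CD71- replicate 1. Wdr75 and Wdr43, WD-repeat proteins of the complex that joins transcription to processing, rose by 2.22 ± 0.37 and 1.99 ± 0.23. Wdr43 read 9.09 and 6.8 CPM in CD71- tumour cells and between 25 and 32.3 CPM in the other 6 libraries. Utp6, Rrp12, Nat10 (the acetyltransferase of 18S RNA) and Utp15 rose by 1.27 to 1.91. The calls of Rrp12 and Nat10 did not hold in every alternative run. Rrp12 was at 1.41 without CD71- tumour replicate 2, and Nat10 at 1.11 without CD71- tumour replicate 1.

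The other 9 small subunit factors did not pass in the tumour. Nop14 read 11.2 and 8.33 CPM in CD71- and 13.8 and 16.8 CPM in CD71+ tumour libraries, apart but with an adjusted p of 0.054. Rrp9 had a log2 difference of 1.10 ± 0.54 on 9 to 40 reads in each tumour library. Noc4l, Utp14a, Bysl, Ltv1, Utp4, Utp18 and Heatr1 lay between -0.42 and 0.38. Heatr1 (chr13:12395027-12440289, mm10), the counterpart of yeast Utp10 that promotes transcription by RNA polymerase I, read 203 and 165 CPM in CD71- and 131 and 145 CPM in CD71+ tumour libraries. In culture it read 18.3 and 21.0 against 31.8 and 31.2 CPM, a rise of 0.68 ± 0.18 (adjusted p = 0.016). Its tumour difference of -0.42 ± 0.17 did not pass with TMM (adjusted p = 0.06), was -0.63 with DESeq2 size factors (adjusted p = 0.0071) and 0.62 on mature neutrophil genes (adjusted p = 0.022).

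Heatr1 shares 155 exon bases with Lgals8, the gene of galectin-8 on the other strand. Lgals8 read 49 and 38.4, 55.3 and 51.1, 219 and 189, and 135 and 148 CPM in the CD71- and CD71+ culture and CD71- and CD71+ tumour libraries, the same order of the 4 group means as Heatr1. The strand setting of the authors' counting was not given in the sources used here, so reads of the 2 genes in the shared bases cannot be told apart. In all 19 members share exon bases with another annotated gene, 4 of them (Nop56, Nop58, Gnl3 and Ncl) with a small RNA gene on their own strand.

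In the large subunit, the 3 proteins of the PeBoW complex, which is needed to mature 28S RNA, differed. Wdr12 read 0.979 and 1.67 CPM in CD71- and 7.42 and 7.07 CPM in CD71+ tumour libraries, and 3.91 and 4.27 against 7.11 and 8.3 CPM in culture. It rose 5.45-fold in the tumour (log2 fold change 2.45 ± 0.41, adjusted p = 0.00047, edgeR quasi-likelihood) and 1.89-fold in culture (0.92 ± 0.28, adjusted p = 0.033). Pes1 rose in the tumour by 1.42 ± 0.24, from 7.97 and 7.08 to 19.0 and 21.4 CPM, and read 30.8 to 38.8 CPM in the 4 culture libraries. Bop1 read 12.2 and 9.02 against 13.9 and 13.2 CPM in the tumour and did not pass.

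Ddx18, an RNA helicase, read 4.05 and 1.25 CPM in CD71- and 11.8 and 12.4 CPM in CD71+ tumour cells, and 17.1, 17.7, 16.7 and 16.1 CPM in culture. It rose by 2.19 ± 0.37 in the tumour and had the largest difference of effects among the members, 2.28 ± 0.46 (adjusted p = 0.0058). Without CD71- tumour replicate 2, which held 9 Ddx18 reads, the difference of effects was 1.56 and did not pass. Noc3l and Noc2l, which travel with pre-60S particles, rose in the tumour by 2.23 ± 0.46 and 0.96 ± 0.20. Noc2l read 26.7 and 20.5 CPM in CD71- and 43.1 and 48.8 CPM in CD71+ tumour libraries, and 68 and 87.1 against 60.5 and 62.3 CPM in culture, with the sorts apart in opposite directions, and its tumour call was lost without CD71- replicate 2. Rrs1, which helps to dock the 5S RNA, rose by 2.12 ± 0.62, but CD71- replicate 2 held 2 Rrs1 reads and the call was lost without it or without CD71+ replicate 2. Gnl3 (nucleostemin, a GTPase of dividing cells) rose by 1.33 ± 0.23, and Nip7 by 0.87 ± 0.30, a call of Nip7 that was lost with DESeq2 size factors and without any of 5 libraries.

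Nop2, the methyltransferase of 28S RNA whose E-box is shown above, read 15.8 and 14.7 CPM in CD71- and 21.2 and 17.6 CPM in CD71+ tumour cells, with an adjusted p of 0.31. In culture it fell from 26.6 and 44.6 to 17.2 and 19.2 CPM, by 0.96 ± 0.24 on the log2 scale (adjusted p = 0.012), a call lost without CD71- replicate 2, without either CD71+ replicate and on total counts. Ebna1bp2, an assembly factor of the large subunit, read 7.13 and 7.49 CPM in CD71- and 5.49 and 4.62 CPM in CD71+ tumour libraries, and 14.1, 12.6, 10.4 and 12.7 CPM in culture. Ebna1bp2 and Rrp1b were the members with the lowest log2 differences in the tumour, at -0.53 ± 0.30 and -0.51 ± 0.23, and neither passed. Rrp1b passed as lower, at -0.72, with DESeq2 size factors (adjusted p = 0.017). Nop16 had a difference of 0.30 ± 0.50.

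Of the abundant nucleolar proteins, Npm1 and Ddx21 rose in the tumour and Ncl did not pass. Npm1 (nucleophosmin, chr11:33152287-33163206, mm10), a chaperone of ribosomal particles, read 119 and 130 CPM in CD71- and 185 and 159 CPM in CD71+ culture libraries. In the tumour it read 18.6 and 19.0 CPM in CD71- and 85.0 and 93.1 CPM in CD71+ libraries. No 2 groups overlapped. Npm1 rose 4.73-fold in CD71+ tumour cells (log2 fold change 2.24 ± 0.18, adjusted p = 1.6e-06, edgeR quasi-likelihood). By the same test it had a difference of 0.47 ± 0.16 in culture (adjusted p = 0.057), and the effects differed by 1.77 ± 0.24 (adjusted p = 7e-04). The culture difference of Npm1 passed as higher on total counts (0.78) and on mature neutrophil genes (1.14).

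Ncl (nucleolin), which binds ribosomal DNA and RNA, read 229 and 252 CPM in CD71- and 135 and 145 CPM in CD71+ culture cells and fell by 0.78 ± 0.16 (adjusted p = 0.004). In the tumour it read 195 and 180 against 170 and 192 CPM, which overlap, with a log2 difference of -0.05 ± 0.16 (adjusted p = 0.81). Scaled on mature neutrophil genes, the tumour difference of Ncl was 0.99 and passed, and the culture difference was -0.09 and did not. Ddx21, an RNA helicase of the nucleolus, rose in the tumour by 1.12 ± 0.25, from 25.6 and 19.3 to 54.3 and 43.5 CPM. In culture it read 9.31 and 14.9 against 18.9 and 20.1 CPM. The tumour call of Ddx21 did not hold in every alternative run, with 0.82 without CD71- tumour replicate 2.

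Set against cultured cells of the same sort, CD71- tumour neutrophils had lower levels of most members. In this comparison 28 of 48 fell and 10 rose, where 36.5% of all tested genes fell and 30.2% rose. The median was -0.89 for members and -0.29 for all genes, and 31 members lay below and 10 above without overlap, as did 45.9% and 36.8% of all tested genes. Npm1 fell 6.61-fold (log2 fold change -2.73 ± 0.18, adjusted p = 1.5e-08, edgeR quasi-likelihood), Ddx18 6.56-fold, Noc3l 5.92-fold, Myc 5.5-fold and Utp20 5.44-fold. Of RNA polymerase I genes 5 of 6 fell, all but Polr1a, and of large subunit factors 10 of 13. Small subunit factors were divided, with 8 of 17 lower and 6 higher.

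Between CD71+ tumour neutrophils and cultured CD71+ cells fewer members were called. There 7 of 48 members fell and 13 rose, with 29.3% and 31.4% of all tested genes, and the median was 0.08 against -0.08 for all genes. In 13 members the tumour libraries lay below and in 19 above, beside 43.3% and 39.2% of all tested genes. Of the 28 members lower in CD71- tumour cells, 21 were not called in CD71+ cells. The other 7 fell there too (Myc, Rrn3, Utp20, Pes1, Rrp1b, Ebna1bp2 and Npm1). Such joint calls were not counted over all tested genes. Myc fell by 2.46 ± 0.44 on the log2 scale in CD71- and by 1.19 ± 0.35 in CD71+ cells, and the second call was lost without CD71+ culture replicate 2 or CD71+ tumour replicate 1. For each member this shift from sort to sort is the difference of effects already tested above.

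**Figure D4:**
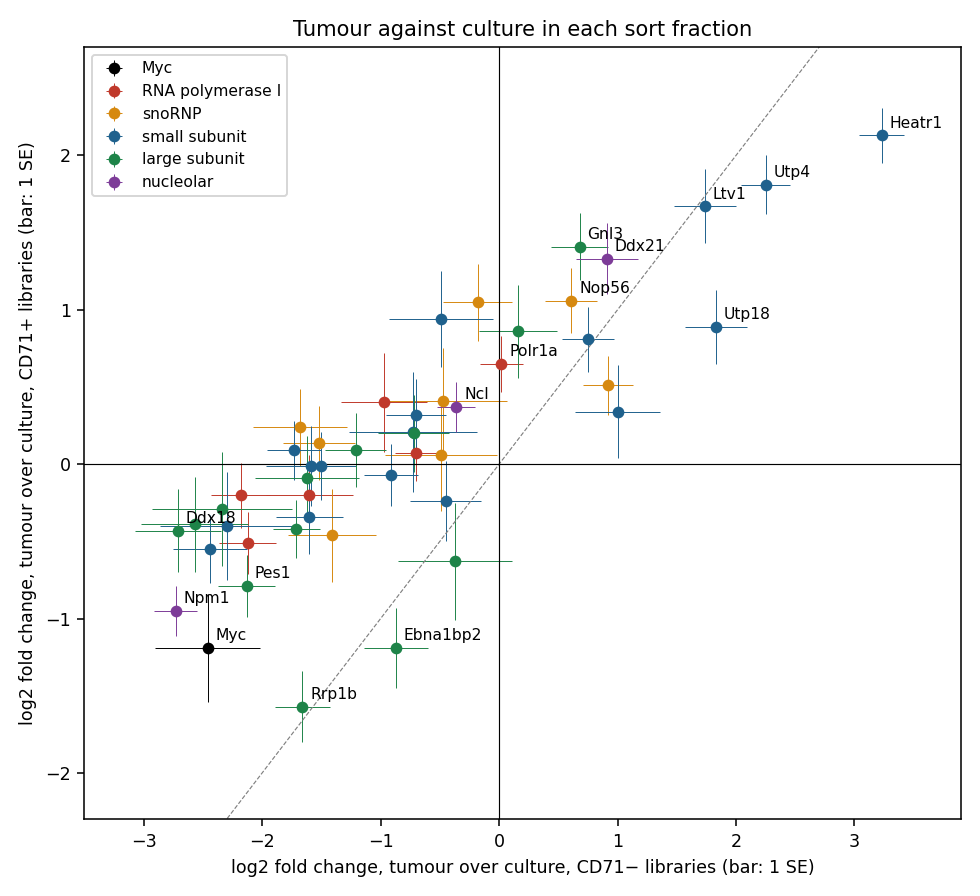
Each point is a member, with the log2 fold change of tumour over culture in CD71- libraries across and in CD71+ libraries up, bars of 1 standard error, colours for roles and a dashed line where both are equal. Most points lie left of 0 and above the dashed line, near 0 on the vertical axis, and Heatr1 is farthest to the upper right at 3.23 and 2.13.

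Another 9 members were higher in the tumour in both sorts, namely Heatr1, Utp4, Utp18, Ltv1, Utp14a, Nop56, Nop58, Gnl3 and Ddx21. On total counts, however, Utp14a, Nop56, Nop58, Gnl3 and Ddx21 were below 0 in CD71- cells. All tested genes were counted in each sort alone, with 30.2% higher in CD71- and 31.4% in CD71+ cells, and not for both sorts jointly. Heatr1 rose 9.38-fold in CD71- and 4.37-fold in CD71+ cells. Utp4, a processome protein also known as cirhin, read 8.78, 9.17, 11.3 and 9.83 CPM in culture and 43.8, 41.8, 37.4 and 36.8 CPM in the tumour, which is 4.77-fold in CD71- and 3.5-fold in CD71+ cells. Ltv1, which helps to export the small subunit, read 6.29 to 7.81 CPM in culture and 19.1 to 27.4 CPM in the tumour. Scaled on mature neutrophil genes, 1 member rose in each sort, and 43 fell in CD71- and 38 in CD71+ cells. Of all tested genes, 11.1% rose and 68.2% fell on that scale in CD71- cells, and 14.5% and 67.3% in CD71+ cells. On that scale Utp4 was at 0.47 and 0.4 and Ltv1 at -0.04 and 0.25, and none of these 4 values passed. Nhp2, Noc4l, Nop16 and Rrp9 were called in none of the 5 comparisons.

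Genes of the same pathways outside the 48 can be read against the 26.1% of all tested genes that rose and the 18% that fell in the tumour. Of 42 other small subunit factors 17 (40.5%) rose and 2 fell with a median of 0.55, of 49 other large subunit factors 21 (42.9%) rose and 5 fell with a median of 0.59, and of 14 tested genes of the exosome and RNA decay 9 (64.3%) rose and 0 fell with a median of 1.08. Of 18 other genes of RNA polymerase I and its factors 3 (16.7%) rose and 2 (11.1%) fell. Their median was 0.36, and that of all genes 0.13. Pno1, the partner of Nob1, rose from 1.67 to 7.72 CPM on average, and Rpf2, which works with Rrs1, from 0.556 to 3.56 CPM. Of 24 tested genes of metabolism and growth known as Myc targets 16 (66.7%) rose and 1 fell, with a median of 1.63. Among them Srm (spermidine synthase) went from 0.348 to 4.91 CPM and Shmt2 (mitochondrial serine metabolism) from 1.25 to 9.07 CPM. Paics (purine synthesis) went from 4.81 to 23.0 CPM, while Eif5a fell from 790 to 508 CPM. A zero count allows up to 0.419 and 0.416 CPM in the CD71- tumour libraries. The CD71- mean of Srm lay below these limits and that of Rpf2 little above, so the size of their rises is uncertain. In culture, where 9.76% of all tested genes rose and 9.46% fell, 2 (4.76%) of the 42 small subunit factors rose and 4 (9.52%) fell. Of the 49 large subunit factors 0 rose and 7 (14.3%) fell, and of the 14 exosome genes 0 rose and 0 fell. Of the 18 RNA polymerase I genes 2 (11.1%) rose and 3 (16.7%) fell, and of the 24 metabolic targets 8 (33.3%) rose and 0 fell.

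**Figure D5:**
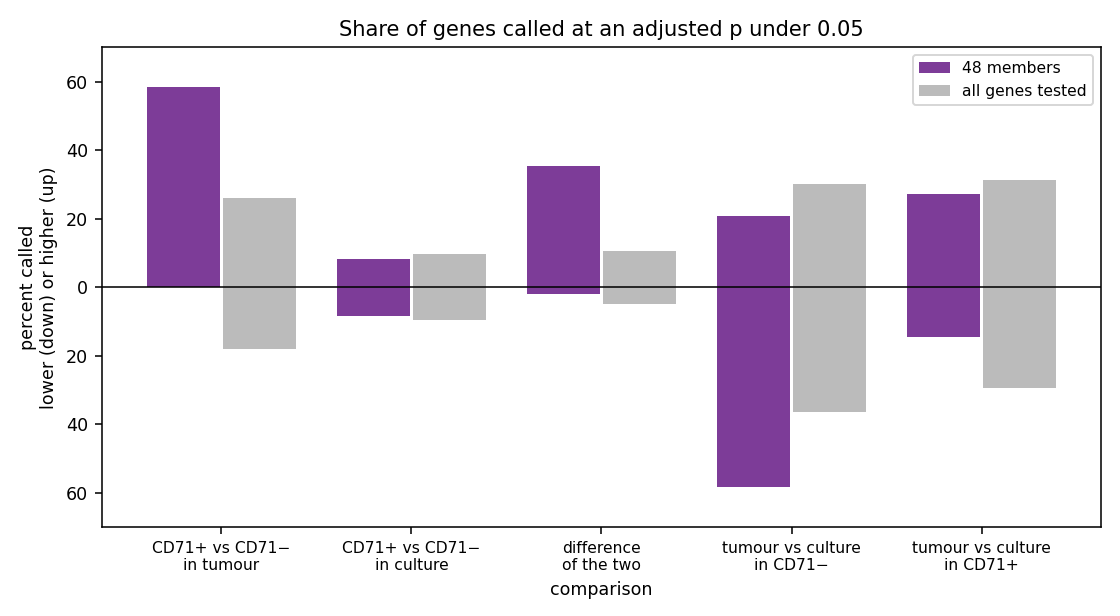
Bars give the percent of the 48 members (purple) and of all 15975 tested genes (grey) called higher (up) or lower (down) in each comparison. In the tumour 58.3% of members and 26.1% of all genes were higher in CD71+ cells, in culture the 2 shares were 8.33% and 9.76%, and in CD71- cells 58.3% of members and 36.5% of all genes were lower in the tumour.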

How the data were processed

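Libraries of ribosomal RNA-depleted total RNA were prepared with a stranded kit, per the labels' protocols. The deposited values are whole-number counts of reads per gene. FastQC, cutadapt, STAR, featureCounts, DESeq2 and build mm10 are named in the submitters' processing notes. Their versions and the strand setting of the counting are not given in the sources used here, and a wrong or absent strand setting would mix genes that overlap.

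From the deposited counts of 55450 genes, 15975 were kept by edgeR's filterByExpr (edgeR 4.0.16, R 4.3.3) and scaled with TMM. All 8 libraries entered 1 quasi-likelihood fit with 4 group means, which left 4 residual degrees of freedom and a common biological coefficient of variation of 0.19. For 5 comparisons p-values were adjusted by Benjamini-Hochberg over all tested genes, with a threshold of 0.05. A zero count allows up to 0.0916 to 0.419 CPM (3 counts, counting error only). No replicate pair held identical values.

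The members and the pathway and marker lists were chosen with earlier results of these data known. Named by rule were Myc and, in each role, the member with the highest level per kilobase and those with the highest and lowest fold change with CD71 in each source. Further members were singled out after their values were seen. Alternatives were other scalings (DESeq2 size factors, total counts, mature neutrophil genes), the DESeq2 1.42.0 test, no filter, a filter of 5 CPM in 2 libraries, a fit of only the groups compared, a replicate block and leaving out each library. Coordinates are from GENCODE annotation of mm10 and promoters from RefSeq on GRCm38.p6.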

Additional observations from a re-analysis of the deposited data

Results flagged for a closer look

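The change with CD71 differed between tumour and culture for 18 members by the test of the difference itself (edgeR quasi-likelihood, adjusted p under 0.05). Of all tested genes, 10.5% were more positive and 4.75% more negative in the tumour by this test. Most of the 18 calls were lost in at least 1 alternative run. The log2 differences, tumour minus culture, were 2.28 for Ddx18, 2.18 for Noc3l, 1.98 for Mybbp1a, 1.93 for Dkc1, 1.89 for Utp20 and 1.81 for Wdr43. They were 1.77 for Npm1, 1.66 for Fbl, 1.61 for Rrn3, 1.58 for Wdr75, 1.49 for Utp6 and 1.34 for Pes1. They were 1.31 for Nop2, 1.30 for Noc2l, 1.26 for Nat10, 1.23 for Nolc1 and 0.73 for Ncl. For Heatr1 the difference was -1.10, the only one of the 18 below 0. In Nop2 and Ncl the difference came with a called fall in culture and no call in the tumour, and in Heatr1 with a called rise in culture and no call in the tumour. Macrophage and microglia genes also changed with CD71 by different amounts in the 2 sources, with 7 of 18 and 5 of 10 tested genes more positive in the tumour and 1 and 0 more negative. Their part in the members' differences was not tested.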

How the results depend on the processing

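Of the member calls, 16 of 28 for CD71 in the tumour, 0 of 8 in culture, 4 of 18 for the difference, 18 of 38 for tumour against culture in CD71- and 4 of 20 in CD71+ cells held in every alternative. In culture the count was 17 on total counts, 30 on mature neutrophil genes, 4 with only the groups compared and 5 with a replicate block, and 0 to 11 with a library left out. The difference gave 28 calls on total counts and 5 to 24 with a library left out. On mature neutrophil genes the tumour gave 45 and the CD71+ comparison 39, and the latter gave 12 to 22 with a library left out. Of all tested genes, 20.4% rose and 4.51% fell in culture on total counts, and 43% and 1.91% on mature neutrophil genes. For the difference on total counts the shares were 16.6% and 2.48%. On mature neutrophil genes they were 57.6% and 0.156% in the tumour and 14.5% and 67.3% in the CD71+ comparison. The cause of these changes with processing was not tested.

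On total counts the tumour log2 differences of Ubtf (0.36), Heatr1 (0.15), Ebna1bp2 (0.03), Ncl (0.51) and Mnt (0.19) and the culture differences of Nop10 (0.22), Nolc1 (0.19) and Ebna1bp2 (0.09) turned from below to above 0. On mature neutrophil genes those of Ubtf (0.83), Heatr1 (0.62), Ebna1bp2 (0.51), Ncl (0.99), Max (0.33), Mxd1 (0.01) and Mnt (0.67) in the tumour did so, and in culture those of Nop10 (0.55), Nolc1 (0.56), Nop14 (0.30), Noc2l (0.35), Ebna1bp2 (0.49), Max (0.19), Mxi1 (0.12) and Mnt (0.21). With a library left out, Ncl in the tumour ran from -0.22 to 0.03, and in culture Nop10 from -0.40 to 0.18 and Nolc1 from -0.33 to 0.11. The median of all genes moved with the scaling, in the tumour from 0.13 to -0.07 (DESeq2 size factors), 0.69 (total counts) and 1.16 (mature neutrophil genes).

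Same-numbered libraries of different groups deviated together with correlations from -0.21 to 0.16, so the numbers were not taken as pairs. With them as a replicate block the member counts were 28 in the tumour, 5 in culture, 15 for the difference, 37 in CD71- and 17 in CD71+ cells. Of all tested genes, 24.8% rose and 16.4% fell in the tumour, 7.99% and 7.82% in culture and 8.28% and 3.78% for the difference. In CD71- cells 29.5% rose and 35.4% fell, and in CD71+ cells 30.5% and 27.6%.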
